A study of Mus musculus with 8 samples.

Results

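The genes described here are 10 targets of the hypoxia response that lie outside glycolysis: Car9, Car12, Vegfa, Ddit4, Bnip3, Ndrg1, Egln3, Ankrd37, Adm and Zfp395. They were chosen by name as 10 of the 53697 genes in the count table, and all 10 passed the filter on low counts. The 8 libraries came from mammary tumors of 4 mice carrying the MMTV-PyMT transgene, which expresses an oncoprotein in mammary epithelium and gives luminal-like tumors. Of these, 2 mice also carried a Dll1-GFP knock-in reporter (PyMT-Dll1GFP, the GFP mice) and 2 a Dll1-mCherry reporter (PyMT-Dll1mCh, the mCh mice), so that cells expressing the Notch ligand Dll1 could be sorted live. Each mouse gave 1 library of reporter-positive cells (Dll1+) and 1 of reporter-negative cells (Dll1-), both from tumors digested with collagenase and hyaluronidase and from the gate lacking CD45, CD31 and Ter119, which removes leukocytes, endothelium and red cells but names no fibroblast marker. The GFP allele is Dll1 GFP-IRES-Cre-ERT2, so it also encodes an inducible Cre, and the mCherry reporter is BAC-based. All mice were on a C57BL/6 background. Neither treatment nor age is given in the labels for these libraries. Reporter line and mice are nested, so line, mice and any batch that went with them cannot be told apart.

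Cells that lack oxygen stabilise the alpha subunits of the hypoxia-inducible factors (HIF), which prolyl hydroxylases otherwise mark for destruction through Vhl. A stabilised alpha subunit pairs with Arnt and binds short DNA elements with the core RCGTG. Besides the glycolytic enzymes, its targets control pH, blood vessel growth, mTORC1 signalling, mitophagy and the HIF pathway itself. In solid tumors these genes are widely used as a hypoxia readout, although several of them also answer to other stresses.

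Promoter sequences were looked up for the 10 genes in RefSeq (build GRCm38.p6), as windows from 250 bases before the start site to 50 bases from it on. Windows were found for 8 genes, of which Vegfa had more than 1. Both forms of the core, ACGTG and GCGTG, were searched on either strand, where they read CACGT and CACGC when reversed. Counted by gene, ACGTG was in a window of 6 of the 8, GCGTG in 5 and either form in 7. Counted by window, 6 of 9 held ACGTG and 5 held GCGTG. Of all 32851 windows of 300 bases, 19.6% held ACGTG, 32.4% GCGTG and 43.8% either form. The Ankrd37 window (chr8:45999801-46000100) lies inside the span of its gene (chr8:45996902-46005707), so its start site is not the outer one. Vegfa entered these counts only through a window inside the gene (chr17:46025114-46025413). The window at its outer start (chr17:46032328-46032627) held no match. The genes were picked as hypoxia targets, so no test was made of these shares. The stretches of 250 bases before the start site are printed for 5 genes, to set 3 genes that rose in Dll1+ cells (Car9, Car12 and Ddit4) beside 2 that did not pass the test (Bnip3 and Ankrd37). The Car9 stretch is chr4:43506776-43507025, plus strand. The Car12 stretch is chr9:66713436-66713685, plus strand. The Ddit4 stretch is chr10:59951771-59952020, minus strand. The Bnip3 stretch is chr7:138909507-138909756, minus strand. The Ankrd37 stretch is chr8:45999851-46000100, minus strand. Each is written 5′ to 3′ on the strand of its gene, with core matches in capitals.
Car9: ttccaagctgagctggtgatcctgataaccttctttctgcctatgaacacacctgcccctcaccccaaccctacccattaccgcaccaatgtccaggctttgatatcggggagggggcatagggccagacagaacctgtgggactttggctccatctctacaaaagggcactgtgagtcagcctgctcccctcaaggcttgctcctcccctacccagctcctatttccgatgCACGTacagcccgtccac
Car12: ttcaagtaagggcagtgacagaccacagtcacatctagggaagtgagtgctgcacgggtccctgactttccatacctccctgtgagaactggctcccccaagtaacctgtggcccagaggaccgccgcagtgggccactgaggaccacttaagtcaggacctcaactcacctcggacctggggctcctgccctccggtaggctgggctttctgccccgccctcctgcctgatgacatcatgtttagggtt
Ddit4: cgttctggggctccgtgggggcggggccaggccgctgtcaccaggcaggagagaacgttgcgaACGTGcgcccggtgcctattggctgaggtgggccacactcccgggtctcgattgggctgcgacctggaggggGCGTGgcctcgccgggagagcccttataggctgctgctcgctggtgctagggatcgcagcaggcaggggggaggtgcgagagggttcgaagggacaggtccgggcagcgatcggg
Bnip3: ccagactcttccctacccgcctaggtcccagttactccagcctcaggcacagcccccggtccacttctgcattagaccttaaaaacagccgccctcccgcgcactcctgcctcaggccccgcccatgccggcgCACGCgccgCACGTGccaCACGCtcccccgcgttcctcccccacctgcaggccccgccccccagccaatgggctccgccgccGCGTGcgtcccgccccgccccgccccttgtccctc
Ankrd37: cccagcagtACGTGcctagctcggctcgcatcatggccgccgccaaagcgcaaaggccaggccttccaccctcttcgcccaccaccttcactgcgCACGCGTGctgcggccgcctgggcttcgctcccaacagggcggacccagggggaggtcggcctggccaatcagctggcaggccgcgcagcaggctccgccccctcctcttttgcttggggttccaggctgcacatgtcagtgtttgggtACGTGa
Car9 held 1 match, 18 bases before the start site, and Ddit4 held 1 of each form. Car12, the gene with the largest fold change of the 10, had no match in its window. Bnip3 held 2 matches of ACGTG, which overlap in 1 palindrome CACGTG, and 3 of GCGTG. Ankrd37 held 2 of each, with its GCGTG pair overlapping in CACGCGTG. These letters are a description of the windows and show no binding.

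Library totals ranged from 27301396 to 123907626 estimated counts, with a median of 38191068. A count of 3 was worth 0.0246 to 0.106 CPM (counts per 1000000 counts) in these libraries, far below the level of any of the 10 genes. Dll1 itself lay at 7.55 and 13.7 CPM in the Dll1- libraries of the GFP mice and at 88.4 and 136.6 CPM in their Dll1+ libraries. In the mCh mice it lay at 35.6 and 50.5 CPM in Dll1- libraries and at 203.7 and 244.9 CPM in Dll1+ libraries, so the sort ran in the labelled direction in all 4 mice. Of 6 epithelial genes examined, the surface protein Epcam was at 901 to 1214 CPM in all libraries. The basal keratin Krt5 was at 6.15 to 30.8 CPM in Dll1- and 27.7 to 243 CPM in Dll1+ libraries. The luminal keratin Krt8 was at 1944 to 2736 CPM in Dll1- and 2290 to 3557 CPM in Dll1+ libraries. Ptprc (CD45) was at 2.87 to 12.8 CPM and Pecam1 (CD31) at 13.6 to 98.5 CPM.

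The mCh Dll1- libraries stood apart by markers of other cell types. The summed level of 8 fibroblast markers was 7772 and 21683 CPM there, against 3019 and 3199 CPM in mCh Dll1+ libraries and 1006 to 1226 CPM in the 4 GFP libraries. The sum of 8 endothelial markers was 224.6 to 499 CPM in mCh Dll1- libraries and 65.0 to 123 CPM in the other 3 groups. The sum of 8 immune markers was 344 to 375 CPM there and 64.3 to 165.6 CPM elsewhere. In the GFP mice the Dll1+ to Dll1- ratio of the sums was 0.926 and 0.936 for fibroblast, 0.960 and 1.08 for endothelial, and 1.08 and 1.12 for immune markers. None of these markers was at 0 in both libraries of any group. In bulk libraries, fewer cells of a type and less RNA per cell cannot be told apart.

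**Figure D1:**
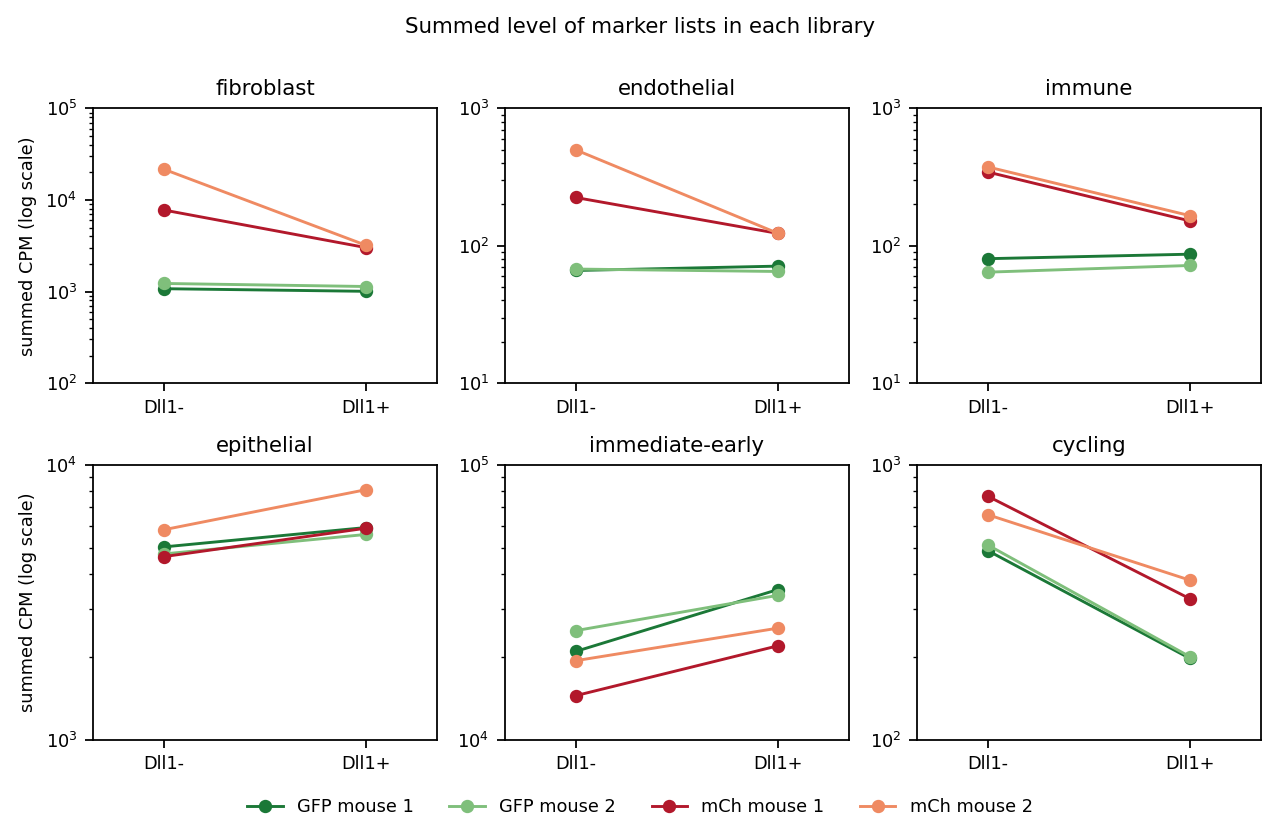
Summed CPM of 6 marker lists (log scale) in the Dll1- and Dll1+ library of each mouse, with 1 line per mouse. Stromal and immune sums were highest in the 2 mCh Dll1- libraries and nearly level in the GFP mice, whereas immediate-early sums were higher and cycling sums lower in Dll1+ cells of all 4 mice.

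The first comparison asked whether these hypoxia targets differ between Dll1+ and Dll1- tumor cells of the same mouse. Over the 4 mice, Dll1+ cells had higher levels of 6 of the 10 genes and lower levels of 0, at an adjusted p under 0.05 (edgeR quasi-likelihood test with mouse as a block, Benjamini-Hochberg adjustment over 19843 genes). Of all genes tested, 6.29% were higher and 7.43% lower. The median log2 fold change was 0.55 over the 10 genes and -0.01 over all genes. The genes that rose were Car12, Zfp395, Car9, Ndrg1, Ddit4 and Vegfa, and their folds lay between 1.40 and 1.96. Without 1 mouse the count was 2 (without GFP mouse 1), 4 (without GFP mouse 2), 3 (without mCh mouse 1) or 5 (without mCh mouse 2, which held the Dll1- library with the highest fibroblast sum). Calls over all genes fell as well, from 2724 of 19843 with all mice to 588 of 21816, 909 of 21163, 436 of 19899 and 2217 of 20425, in the same order.

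**Figure D2:**
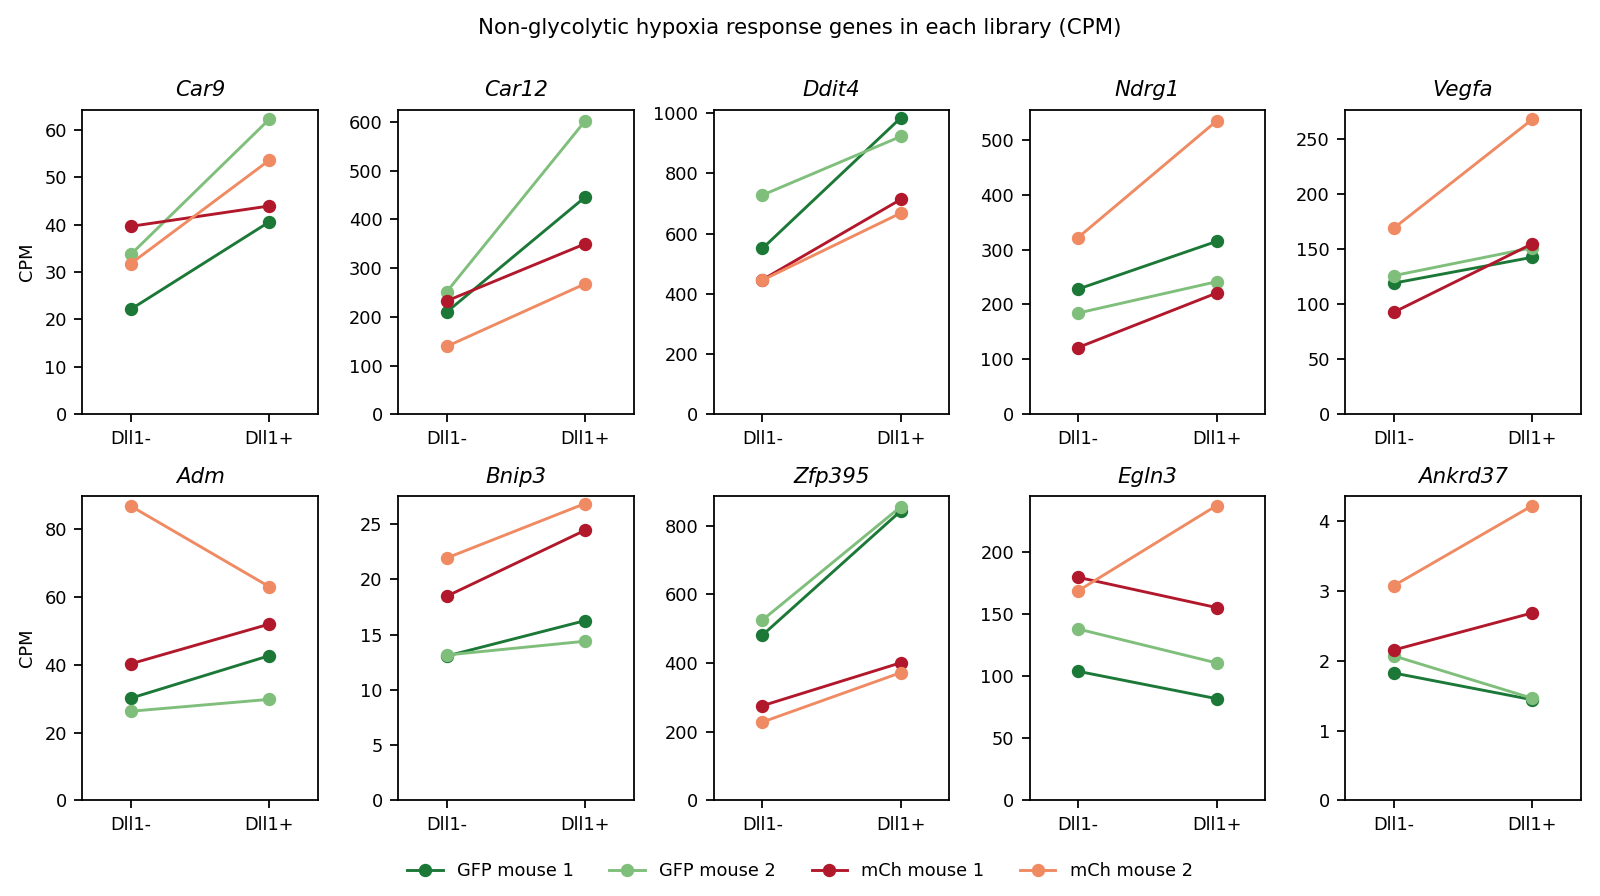
CPM of each of the 10 genes in the Dll1- and Dll1+ library of each mouse, with 1 line per mouse and each axis starting at 0. All 4 lines go up for Car9, Car12, Ddit4, Ndrg1, Vegfa, Bnip3 and Zfp395, while those of Adm, Egln3 and Ankrd37 do not share a direction.

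Car9 and Car12 encode membrane carbonic anhydrases with an outward-facing active site, which turn CO2 and water into bicarbonate and protons and so help set tumor pH. Car12 (GRCm38, chr9:66713686-66766845) was at 209.8, 251, 233 and 139 CPM in the Dll1- libraries of GFP mouse 1, GFP mouse 2, mCh mouse 1 and mCh mouse 2. In the Dll1+ libraries of the same mice it was at 446, 602, 350.0 and 268 CPM. Every Dll1+ library lay above every Dll1- library, and the smallest gain was in mCh mouse 1. The fitted log2 change was 0.97 (± 0.12 SE, adjusted p = 0.00911), and it stayed past the threshold without any 1 mouse.

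Car9 (chr4:43506966-43513729) was at 22.2, 33.7, 39.7 and 31.8 CPM in Dll1- libraries, in the same order of mice, and at 40.6, 62.3, 44.0 and 53.6 CPM in Dll1+ libraries. The groups did not overlap, but the gap between the highest Dll1- and the lowest Dll1+ library was narrow, and mCh mouse 1 gained only 10.8%. On the log2 scale its rise was 0.66 (± 0.14 SE, adjusted p = 0.0344). The adjusted p was 0.129 without GFP mouse 1, 0.109 without GFP mouse 2 and 0.0731 without mCh mouse 2. The antisense gene Gm12454 overlaps Car9 and reached 395 estimated counts, against 4834 for Car9. The kit marks strand, but the strand setting used in counting is not given in the sources used here.

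Among the other 12 tested genes of a list of carbonic anhydrases and pH transporters, 2 were higher and 2 lower in Dll1+ cells. Car8, a relative without carbonic anhydrase activity, rose from a mean of 8.33 to 22.8 CPM (log2 fold change 1.46, adjusted p = 0.0217). Mitochondrial Car5b rose by 0.32 on the log2 scale (adjusted p = 0.0329). Secreted Car6 fell by 0.65 (adjusted p = 0.0350). Cytosolic Car3, which is abundant in fat, averaged 1.16 CPM in Dll1- and 0.134 CPM in Dll1+ libraries (log2 fold change -2.91, adjusted p = 0.0206). The summed level of 4 adipocyte markers was 44.3 to 109.6 CPM in mCh Dll1- libraries and 9.51 to 27.8 CPM in the other groups, and its part in the Car3 result was not tested.

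Ddit4 encodes REDD1, a brake on mTORC1 that is induced by hypoxia and by several other stresses. It had the highest level per kilobase of exon among the 10 genes (388.8 CPM per kb, mean of 8 libraries). Ddit4 (chr10:59949669-59951834) was at 550.4, 728, 446 and 445 CPM in Dll1- libraries of GFP mouse 1, GFP mouse 2, mCh mouse 1 and mCh mouse 2, and at 984, 923, 713 and 668 CPM in Dll1+ libraries. It was higher in the Dll1+ library of all 4 mice, though GFP mouse 2 Dll1- lay above both mCh Dll1+ libraries. The fitted log2 change was 0.61 (± 0.10 SE, adjusted p = 0.0160), with an adjusted p of 0.0635 without GFP mouse 1 and 0.0830 without mCh mouse 1.

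Of 11 other mTORC1 genes tested, 2 rose and 1 fell. Deptor, an inhibitor inside the mTOR complexes, went from a mean of 110.4 to 232 CPM (log2 fold change 0.99, adjusted p = 0.00948). Sesn2, a stress-induced sensor that restrains mTORC1, rose by 0.37 on the log2 scale (adjusted p = 0.0234). Eif4ebp1, a translation repressor that mTORC1 inactivates, fell by 0.38 (adjusted p = 0.0297). Sesn2 is also 1 of 6 integrated stress response genes examined, of which 2 rose, the other being Ddit3 (log2 fold change 0.72, adjusted p = 0.00492).

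Zfp395 (chr14:65358389-65398930) encodes a zinc finger protein whose transcription is raised by hypoxia. Its Dll1- libraries were at 481 and 525 CPM in the GFP mice and at 276 and 228 CPM in the mCh mice. Its Dll1+ libraries were at 843 and 855 CPM in the GFP mice and at 401 and 372 CPM in the mCh mice. The sorts overlapped across lines, because both Dll1- libraries of the GFP mice lay above both Dll1+ libraries of the mCh mice, but the gain within a mouse was even, at 45.4% to 75.2%. Its log2 change of 0.69 had the smallest SE of the 10 genes (0.07, adjusted p = 0.00652) and stayed past the threshold without any 1 mouse. The overlapping antisense gene Gm48449 reached 141 estimated counts, against 38548 for Zfp395.

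Ndrg1 encodes a cytoplasmic protein of the NDRG family, induced by hypoxia and during differentiation. Ndrg1 (chr15:66929318-66969640) was at 228, 184, 122 and 322 CPM in Dll1- libraries and at 315, 241, 221 and 534 CPM in Dll1+ libraries, in the same order of mice. Levels differed more between the mCh mice than between the sorts, with both libraries of mCh mouse 2 above every other library of their own sort. Its fitted log2 change was 0.61 (± 0.09 SE, adjusted p = 0.0151). The adjusted p was 0.0508 without GFP mouse 1 and 0.0706 without mCh mouse 1. The other family members Ndrg2, Ndrg3 and Ndrg4 had log2 fold changes of 0.00, 0.09 and -0.34, none past the threshold.

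Vegfa and Adm encode secreted factors that act on blood vessels, Vegfa by driving endothelial growth and Adm as a vasodilator peptide. Vegfa (chr17:46016993-46032369) was at 119, 126, 92.6 and 169 CPM in Dll1- libraries and at 143, 151, 155 and 268 CPM in Dll1+ libraries. It was higher in the Dll1+ library of each mouse, by 19.7% and 20.1% in the GFP mice and by 67.1% and 58.5% in the mCh mice. Over the mice this was a log2 change of 0.48 (± 0.10 SE, adjusted p = 0.0340), and leaving out any 1 mouse put the adjusted p between 0.0601 and 0.137.

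Adm (chr7:110627661-110629820) was at 30.2, 26.3, 40.3 and 86.8 CPM in Dll1- libraries and at 42.7, 29.8, 52.0 and 63.0 CPM in Dll1+ libraries. It was higher in Dll1+ cells of 3 mice and lower in mCh mouse 2, whose Dll1- library held the highest Adm value and also the highest fibroblast sum. Its fitted log2 change was 0.15 (± 0.17 SE, adjusted p = 0.591) with all mice and 0.35 (adjusted p = 0.0469) without mCh mouse 2. Whether the fibroblast markers had a part in this was not tested.

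Of 12 other ligands, receptors and receptor partners of the VEGF and adrenomedullin systems, 2 rose over the 4 mice and 0 fell. Pgf, a further ligand of the VEGF receptor Flt1, averaged 29.6 CPM in Dll1- and 79.9 CPM in Dll1+ libraries (log2 fold change 1.50, adjusted p = 0.00492). Ramp1, a partner of the receptor for calcitonin gene-related peptide, rose by 1.19 on the log2 scale (adjusted p = 0.0130). Vegfd and Ramp3 gave -1.70 (adjusted p = 0.170) and -0.56 (adjusted p = 0.185). In the mCh mice alone 5 of the 12 were lower in Dll1+ cells, beside an endothelial marker sum that was 0.548 and 0.247 times that of Dll1- cells. Kdr and Flt1 belong to both lists, and Flt1 was among the 5.

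Bnip3 encodes a receptor on the outer mitochondrial membrane that tags mitochondria for mitophagy. Bnip3 (chr7:138890836-138909519) was at 13.1, 13.2, 18.5 and 21.9 CPM in Dll1- libraries and at 16.3, 14.4, 24.4 and 26.9 CPM in Dll1+ libraries. It was higher in Dll1+ cells of all 4 mice, by 9.46% to 32.3%. A log2 change of 0.29 (± 0.07 SE) missed the threshold (adjusted p = 0.0550), while DESeq2 gave an adjusted p of 0.0101. Of 8 other mitophagy genes, Gabarapl1, which couples cargo to the autophagosome, rose by 0.27 on the log2 scale (adjusted p = 0.0298). Fundc1, Gabarap and Becn1 had log2 fold changes of 0.22, 0.21 and 0.13 and did not pass.

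Egln3 and Ankrd37, like Adm, did not move in 1 direction in all 4 mice. Egln3 encodes PHD3, a prolyl hydroxylase that HIF induces and that acts back on the alpha subunits. Egln3 (chr12:54178981-54203860) was at 104, 138, 179.9 and 169 CPM in Dll1- libraries and at 82.0, 111, 155 and 238 CPM in Dll1+ libraries. It was lower in Dll1+ cells of both GFP mice and of mCh mouse 1, at 0.788 to 0.864 times the Dll1- level, and 40.7% higher in mCh mouse 2. Fitted over the mice, its log2 change was -0.10 (± 0.15 SE, adjusted p = 0.709).

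Ankrd37 (chr8:45996902-46005707), an ankyrin repeat protein of unsettled function, was the lowest of the 10 genes, at 1.54 CPM per kb and 41 to 263 estimated counts. It was at 1.83, 2.07, 2.16 and 3.08 CPM in Dll1- libraries and at 1.44, 1.46, 2.69 and 4.23 CPM in Dll1+ libraries. It went down in both GFP mice and up in both mCh mice, and its log2 change over all mice was 0.01 (± 0.23 SE, adjusted p = 0.988). Ankrd37 shares 57 bp with Ufsp2 on the opposite strand, and Ufsp2 reached 5914 estimated counts.

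Markers of other states moved with the sort in all 4 mice and stand beside each of these results. Of 12 immediate-early genes, which answer quickly to stress and to tissue dissociation, 7 rose and 0 fell in Dll1+ cells. Their summed level in Dll1+ cells was 1.68, 1.34, 1.52 and 1.31 times that in Dll1- cells of GFP mouse 1, GFP mouse 2, mCh mouse 1 and mCh mouse 2. Krt5, which marks basal epithelium, was higher in Dll1+ cells of each mouse and averaged 17.9 CPM in Dll1- and 139 CPM in Dll1+ libraries. Its log2 change was 2.76 over 4 mice (adjusted p = 0.00728), 2.31 in GFP mice (adjusted p = 0.00763) and 3.16 in mCh mice (adjusted p = 0.00642). Its partner Krt14 averaged 82.0 and 247 CPM and gave 1.54 over 4 mice (adjusted p = 0.0543), 0.90 in GFP mice (adjusted p = 0.189) and 2.18 in mCh mice (adjusted p = 0.0370). The luminal keratins Krt8 and Krt18 were also higher in Dll1+ cells of each mouse. Over 4 mice they gave 0.29 (adjusted p = 0.0649) and 0.35 (adjusted p = 0.0585). The remaining epithelial genes Epcam and Cdh1 gave 0.29 (adjusted p = 0.0573) and -0.12 (adjusted p = 0.477). All 8 cycling genes fell, with a median log2 fold change of -1.12. Of 6 markers of hormone-sensing luminal cells 4 fell and 0 rose, with a median of -1.43. The part of these states in the differences of the 10 genes was not tested.

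The genes that rose over all mice had positive log2 changes in GFP mice and in mCh mice. They were picked from a fit of these same libraries, so the shared direction is no independent support. In the GFP mice 4 of the 10 passed upward in Dll1+ cells and 0 downward, against backgrounds of 4.37% upward and 4.47% downward. On the log2 scale Car12 rose by 1.17 (± 0.11 SE, adjusted p = 0.00399), Car9 by 0.88 (± 0.15 SE, adjusted p = 0.0261), Zfp395 by 0.76 (± 0.10 SE, adjusted p = 0.00901) and Ndrg1 by 0.43 (± 0.09 SE, adjusted p = 0.0317). Ddit4 at 0.59 (adjusted p = 0.0510) and Vegfa at 0.26 (adjusted p = 0.0821) did not pass. Without GFP mouse 1 or GFP mouse 2 the count was 1 or 0, while calls over all genes went from 1754 of 19843 to 411 of 21816 or 127 of 21163. In these mice fibroblast, endothelial and immune sums differed by at most 1.12-fold between the sorts.

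In the mCh mice 5 of the 10 passed upward and 0 downward, against backgrounds of 4.47% upward and 6.77% downward. There Ndrg1 rose by 0.80 on the log2 scale (± 0.09 SE, adjusted p = 0.00835), Car12 by 0.77 (± 0.11 SE, adjusted p = 0.0150), Vegfa by 0.70 (± 0.07 SE, adjusted p = 0.00835), Ddit4 by 0.63 (± 0.14 SE, adjusted p = 0.0377) and Zfp395 by 0.62 (± 0.10 SE, adjusted p = 0.0170). Car9 was at 0.45 (adjusted p = 0.115). The fibroblast sum in Dll1+ cells of these mice was 0.388 and 0.148 times that in Dll1- cells, and its part in these values was not tested. With only the 4 mCh libraries in the edgeR fit 0 of the 10 and 0 of all 19945 genes passed, and with only the 4 GFP libraries 5 of the 10 and 2337 of 17798 did. Without mCh mouse 2 the count in mCh mice was 2, with 886 of 20425 genes called against 2230 of 19843.

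**Figure D3:**
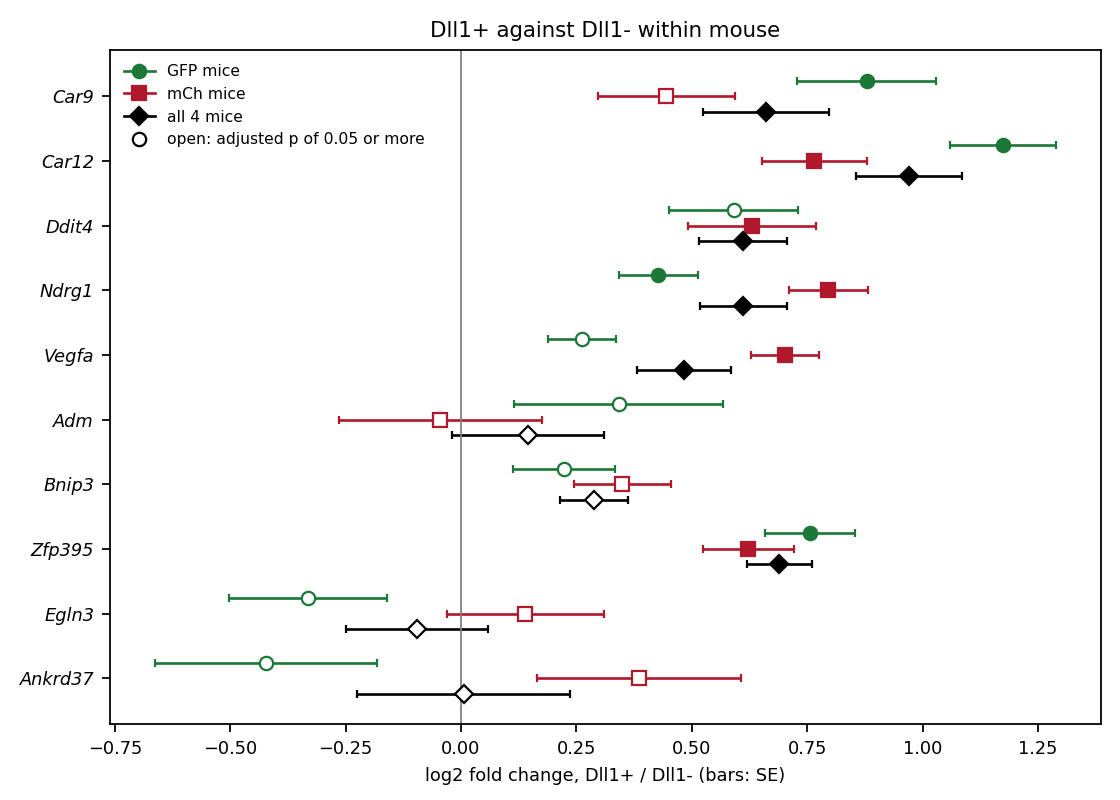
Fitted log2 fold change of Dll1+ over Dll1- cells for the 10 genes in GFP mice, mCh mice and all 4 mice, with bars for the SE and open symbols where the adjusted p was 0.05 or more. Car12, Ndrg1 and Zfp395 have filled symbols in all 3 fits, and Ankrd37 lies on opposite sides of 0 in GFP and mCh mice.

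The difference between the effects was tested directly as the mCh effect minus the GFP effect. None of the 10 genes passed in edgeR (0 higher, 0 lower), where 0.0302% of all genes were higher and 0.197% lower. In the same edgeR fit 4 of the 10 had an unadjusted p under 0.05, as did 2453 of all 19843 genes tested. DESeq2 called 1 of the 10, and its calls over all genes are not given here. The gene called by DESeq2 was Vegfa, with a larger gain in mCh mice (difference 0.44 on the log2 scale, SE 0.10, adjusted p = 0.177 in edgeR and 0.0486 in DESeq2). Ndrg1 differed by 0.37 (± 0.12 SE, adjusted p = 0.292), Car12 by -0.41 (± 0.16 SE, adjusted p = 0.371) and Car9 by -0.43 (± 0.21 SE, adjusted p = 0.496). Ankrd37 gave the largest difference, 0.81 (± 0.33 SE, adjusted p = 0.391). Egln3 differed by 0.47 (adjusted p = 0.531) with all mice. It differed by 0.85 without mCh mouse 1, a fit in which mCh mouse 2 was the only mCh mouse. Egln3 fell in Dll1+ cells of mCh mouse 1 and rose in those of mCh mouse 2. Ddit4 and Zfp395 had differences of 0.04 (SE 0.20) and -0.13 (SE 0.14).

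Levels were also compared between the reporter lines within a sort, with 2 mice per line. In the Dll1- sort, mCh mice had higher levels of 2 of the 10 genes and lower levels of 2, where 19.0% of all tested genes were higher and 15.9% lower. In the Dll1+ sort they had higher levels of 3 and a lower level of 1, against backgrounds of 13.0% higher and 14.5% lower. Both counts moved with the mice in the fit. Leaving out 1 mouse leaves a single mouse in its line, so the counts of those fits are not given. Zfp395 was lower in mCh mice in both sorts, at 0.501 times the GFP level in Dll1- cells (adjusted p = 0.00267) and 0.455 times in Dll1+ cells (log2 change -1.14 ± 0.13 SE, adjusted p = 0.00369). Bnip3 was higher in mCh mice in both, with 0.62 (± 0.14 SE, adjusted p = 0.0148) and 0.74 (± 0.14 SE, adjusted p = 0.0113).

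The other line differences passed in 1 sort each. In Dll1- cells Ddit4 was lower in mCh mice (log2 fold change -0.52, adjusted p = 0.0348) and Adm higher (1.17, adjusted p = 0.0451), the former with an adjusted p of 0.0540 to 0.313 without any 1 mouse and the latter falling to 0.50 (adjusted p = 0.111) without mCh mouse 2. In Dll1+ cells Egln3 was higher in mCh mice (1.03, adjusted p = 0.0264), as was Ankrd37 (1.25, adjusted p = 0.0302). Without mCh mouse 2 these had adjusted p of 0.0772 and 0.0556. For Car12 in Dll1+ cells the log2 change was -0.76 with an adjusted p of 0.0844. All 8 fibroblast, all 8 endothelial and all 8 immune markers were higher in mCh mice in the Dll1- sort, as were 6 of 8 cycling genes. In the Dll1+ sort 5 of 8 fibroblast, 2 of 8 endothelial, 4 of 8 immune and 7 of 8 cycling genes were called higher and 0 lower. The part of these markers in the line differences was not tested.

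**Figure D4:**
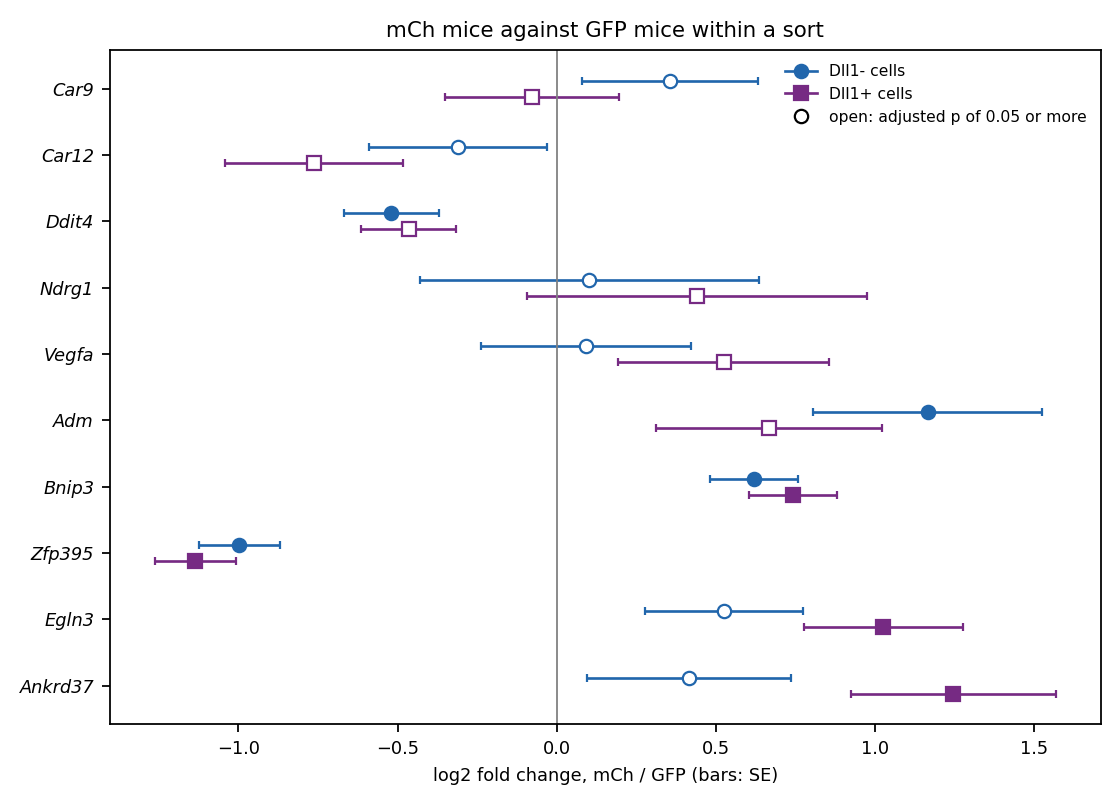
Fitted log2 fold change of mCh over GFP mice for the 10 genes in Dll1- and in Dll1+ cells, with bars for the SE and open symbols where the adjusted p was 0.05 or more. Zfp395 lies well below 0 and Bnip3 above 0 in both sorts, and the wide bars of Ndrg1 come with its spread between the mCh mice.

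The HIF pathway itself was examined through its subunits and regulators, of which 1 of 15 tested was higher in Dll1+ cells and 0 lower. The 1 that rose was Cited2, which competes with HIF for its coactivators (mean 198 and 272 CPM, log2 fold change 0.47, adjusted p = 0.0265). Hif1a averaged 82.8 CPM in Dll1- and 67.7 CPM in Dll1+ libraries (log2 fold change -0.29, adjusted p = 0.0917). Arnt, Vhl, Egln1 and the asparagine hydroxylase Hif1an had log2 fold changes of -0.05, 0.19, -0.11 and -0.14, none past the threshold. HIF alpha subunits are set mainly by protein stability, which RNA levels do not show.

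Epas1 encodes another HIF alpha subunit and is abundant in endothelium. Over all mice its log2 change was 0.19, with an adjusted p of 0.708. It rose in GFP mice (0.85, adjusted p = 0.00724) and fell in mCh mice (-0.45, adjusted p = 0.0389), and the difference of -1.29 passed the test (adjusted p = 0.0472). The endothelial marker sum in Dll1+ cells was 0.548 and 0.247 times that in Dll1- cells of the mCh mice, and its part in the Epas1 difference was not tested. Arnt2, an alternative partner subunit, differed in the other direction between the lines (difference 1.44, adjusted p = 0.0484), with log2 fold changes of -1.77 in GFP mice (adjusted p = 0.00232) and -0.33 in mCh mice (adjusted p = 0.126).

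A list of 34 tested HIF targets outside glycolysis, not among the 10 genes, gave 4 higher and 3 lower in Dll1+ cells, with a median log2 fold change of 0.03. Ppp1r3c, a glycogen-targeting phosphatase subunit, rose from a mean of 8.47 to 17.4 CPM (log2 fold change 1.08, adjusted p = 0.00867), and Bhlhe41, a transcriptional repressor of the clock, from 103 to 201 CPM (1.02, adjusted p = 0.00622). Wsb1, a ubiquitin ligase subunit, rose by 0.39 on the log2 scale (adjusted p = 0.0119). Tfrc, the transferrin receptor, fell by 0.41 (adjusted p = 0.0216). Errfi1 (0.44), Stc2 (-1.94) and Plod1 (-0.29) were the others past the threshold, and were named after their values were seen.

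Of 18 glycolytic HIF targets 4 were higher and 2 lower, with a median log2 fold change of -0.09. Aldoa, a fructose-bisphosphate aldolase, averaged 869 CPM in Dll1- and 1361 CPM in Dll1+ libraries (log2 fold change 0.66, adjusted p = 0.0101), its isoform Aldoc rose by 0.58 (adjusted p = 0.00997), and Ldha, lactate dehydrogenase A, by 0.49 (adjusted p = 0.0168). Eno1, an enolase, fell by 0.42 (adjusted p = 0.0226). The 6 of 10 genes called higher here thus stood beside 4 of 34 and 4 of 18 in the lists of other HIF targets. The 10 genes were chosen with results of these libraries known, so no test was made of this contrast.

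**Figure D5:**
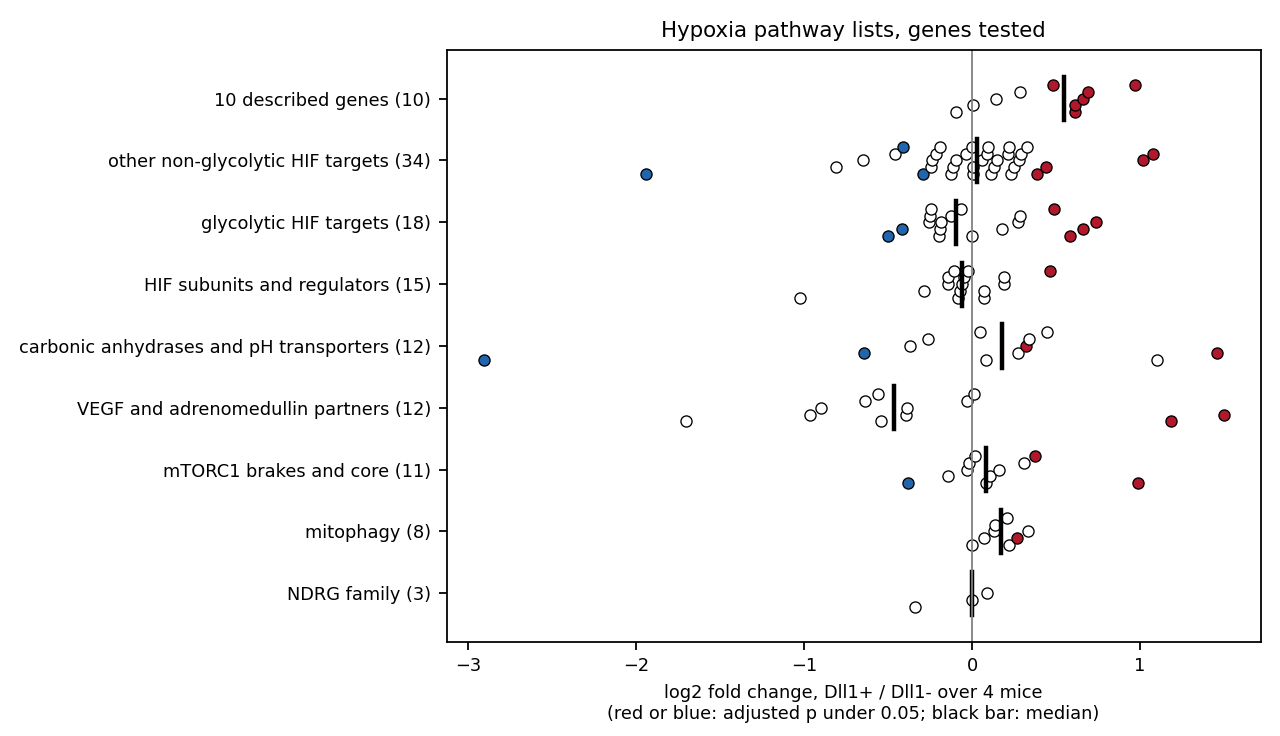
Log2 fold change of Dll1+ over Dll1- cells over 4 mice for each gene tested in 9 lists, with filled points where the adjusted p was under 0.05 and a black bar at each median. The median of the 10 described genes was 0.55, and those of other non-glycolytic and glycolytic HIF targets were 0.03 and -0.09.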

How the data were processed

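RNA was sequenced from sorted tumor cells (8 libraries of 4 mice, with a stranded kit). The authors quantified reads with Salmon against GENCODE transcripts of build GRCm38.p6 and summed them to genes. The deposited values are estimated counts per gene, given as whole numbers without normalization or filter. Their precision follows from the totals, and they cover counting error only.

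Here genes were kept by edgeR's filterByExpr over the 4 groups (19843 of 53697), scaled by TMM factors and tested with the quasi-likelihood test (edgeR 4.0.16, R 4.3.3) with adjustment over all genes tested and a threshold of 0.05. CPM are counts divided by library totals times TMM factors. Samples were paired by the mouse named in the labels, and mouse was a block in the Dll1+ against Dll1- fits. Deviations of same-mouse libraries from their group means correlated at -0.0487 in GFP and 0.538 in mCh mice. Lines were compared on 4 group means. DESeq2 1.42.0 and other filters, scalings and sample sets were alternatives. Gene names, positions and exon lengths came from GENCODE M21 (GRCm38; 53668 IDs matched). Code was tested on simulated data. The 10 genes, the gene lists and the naming rule (the 10 genes, a few core HIF genes and up to 4 genes of each list with the lowest p over 4 mice) were chosen with earlier results of these data known. P-values rest on 2 mice per line.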

Additional observations from a re-analysis of the deposited data

Results flagged for a closer look

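Vegfa in mCh mouse 2 stood apart among the 4 Dll1+ libraries, at 268 CPM against 143 to 155 CPM in the others. The gap made up 0.869 of the range of log2 CPM. The Dll1- library of the same mouse was also the highest of its sort, at 169 CPM.

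Egln3 was 40.7% higher in Dll1+ cells of mCh mouse 2 and at 0.788 to 0.864 times the Dll1- level in the other 3 mice, so that 1 mouse lay at 0.841 of the range of the within-mouse log2 differences from its nearest neighbour. Gaps of these sizes appear by chance in about 1 in 20 groups of 4. All 10 genes were searched, each in its within-mouse differences and in the libraries of each sort. Some such gaps can therefore arise by chance.

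Ankrd37 moved in opposite directions in the 2 reporter lines, down in both GFP mice and up in both mCh mice. The difference of the effects was 0.81 on the log2 scale, and its own test in edgeR gave an adjusted p of 0.391. The gene had 41 to 263 estimated counts per library.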

How the results depend on the processing

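Over 4 mice, 6 of the 10 genes were called higher in Dll1+ cells, beside 2724 calls in either direction over all 19843 genes. The count was 6 under other size factors (2668 over all genes) and 7 in DESeq2 (4372 over all genes). It was 6 without the low-count filter (2490 of 34834 genes) and 7 with at least 10 counts in every library (2930 of 15566 genes). Without the mouse block the count was 0, as was that of all 19843 genes, and with a reporter term in place of the mouse, an alternative chosen after seeing the data, it was 3, with 1366 of 19843 genes called. Leaving out 1 mouse gave 2 to 5. In GFP mice the 4 calls became 1 without the block (271 of all genes). In mCh mice the 5 calls became 0 without the block (203 of all genes) and 0 with the mCh libraries fitted alone (0 of all genes). In both lines the count moved up or down depending on which mouse was left out. For the difference between lines DESeq2 called 1 gene against 0. In Dll1- cells the 4 line differences became 1 with the libraries of that sort alone and 0 to 5 with 1 mouse left out, and in Dll1+ cells the 4 became 0 to 8. The cause of these shifts was not tested, except that fits without a mouse hold fewer libraries, and with 1 mouse left in a line that mouse is assumed to vary like the others. The line difference in Dll1- cells turned from 0.09 to -0.42 for Vegfa and from 0.10 to -0.78 for Ndrg1 without mCh mouse 2, and was 0.42 and 0.60 without mCh mouse 1. Of the values of single genes under alternatives, 463 kept direction and call, 10 turned sign without a call in either fit, 70 lost and 25 gained the call with the same sign, and 2 turned sign with a call.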

Other observations

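The pattern of each of the 10 genes over the 8 libraries was compared with that of the other protein-coding genes tested, by Pearson's r of log2 CPM, as a description. As measured, the closest gene was Trim34b for Zfp395 (r = 0.995), Gli1 for Adm (0.991), Dclk2 for Ndrg1 (0.987), Lrfn4 for Bnip3 (0.987), Ppp1r36 for Car12 (0.985), Vps26a for Ddit4 (0.978), 1110032F04Rik for Ankrd37 (0.976), Kif3c for Egln3 (0.975), Gna14 for Car9 (0.968) and Tmem53 for Vegfa (0.966). The libraries share mice and reporter lines, so these values follow line as well as sort. Subtracting each mouse's mean leaves 4 differences per gene, so a best match near 1 is easily found among many genes. The closest gene was then Mybph for Bnip3 (r = 0.99996), Vsig10l for Ddit4 (0.99996), Rnf185 for Car12 (0.9999) and Hist3h2a for Ndrg1 (0.9998). It was Fam20a for Zfp395 (0.9998), Tlcd1 for Vegfa (0.9993) and Bbs4 for Car9 (0.9993). For Egln3, Adm and Ankrd37 it was Gm20518 (0.997), Lrsam1 (0.996) and Lhfpl1 (0.994).

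Among the 10 genes themselves, the pair most alike after subtracting mouse means was Vegfa and Ndrg1 (r = 0.990), and the pair most opposed was Egln3 and Adm (r = -0.945). In that pair mCh mouse 2 gave the only rise of Egln3 and the only drop of Adm.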
